A study of Mus musculus with 6 samples.

Results

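Gata4, Gata6, Foxa1, Foxa2, Foxa3, Hnf4a, Hnf4g and Klf5 encode transcription factors of the endoderm, the germ layer that forms gut, liver and pancreas. They were chosen by name, and all 8 were found, 1 row each, among the 23099 gene symbols of the deposited tables. RNA from whole pancreas of 8-week-old mice was sequenced after selection of polyadenylated RNA, giving 3 libraries for wild-type mice (WT) and 3 for Ela1-Myc mice. The Ela1-Myc line expresses Myc from the elastase 1 promoter, which is active in acinar cells, the cells that secrete digestive enzymes, so the transgene is driven in that cell type while the libraries hold RNA of every pancreatic cell type. The single contrast of the design, Ela1-Myc against WT, asks how the adult pancreas differs when Myc, a transcription factor of growth and division, remains active in acinar cells. No treatment is labelled, and the labels do not state whether each library is a different mouse, so p-values here speak of the spread between these samples only.

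GATA4 and GATA6 are zinc finger proteins that bind GATA motifs. FOXA1, FOXA2 and FOXA3 share a forkhead domain and are known as pioneer factors, which can bind sites in closed chromatin. HNF4A and HNF4G are nuclear receptors that regulate genes of epithelial metabolism, and KLF5 is a zinc finger protein of the Krüppel-like family. In the embryo, GATA4, GATA6, FOXA1 and FOXA2 act early in pancreas formation, and in the adult GATA6 helps to maintain acinar differentiation, while FOXA2 and HNF4A are also known for roles in islet beta cells.

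Values are the authors' adjusted FPKM (a fragment count set against transcript length and library size), divided here by 100000, and the depth of the libraries is unknown. FPKM is per length; setting levels of different genes side by side assumes that the adjustment acted alike on all genes, which was not tested. Summed over all genes the values came to between 629597 and 1948844 per library. Most genes were higher in Ela1-Myc on this deposited scale: 70.2% of the 8802 genes with a mean of at least 1 were called higher and 0.239% lower (limma, Benjamini-Hochberg adjusted p below 0.05), with a median log2 change of 1.22. After median-of-ratios scaling, which sets the typical gene equal between libraries, 17.0% were called higher and 7.08% lower, with a median of 0.22. Each result for the 8 factors is therefore given on both scales, or as a ratio within a library, which no scaling between libraries can move. An exact 0 is described only as listed at 0, because zeros are spread unevenly. Among the tested genes, which passed a filter on the mean, 592 to 1426 stand at 0 in each WT library and 0 to 29 in each Ela1-Myc library. Over all gene symbols the order is the other way, with 2195 to 4713 at 0 in WT and 5240 to 6102 in Ela1-Myc. The RNA integrity number (RIN) given with the samples was 7.1 to 7.3 in WT and 7.2 to 8.8 in Ela1-Myc, and 5 of the 6 values are under the minimum that the extraction protocol states.

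**Figure D1:**
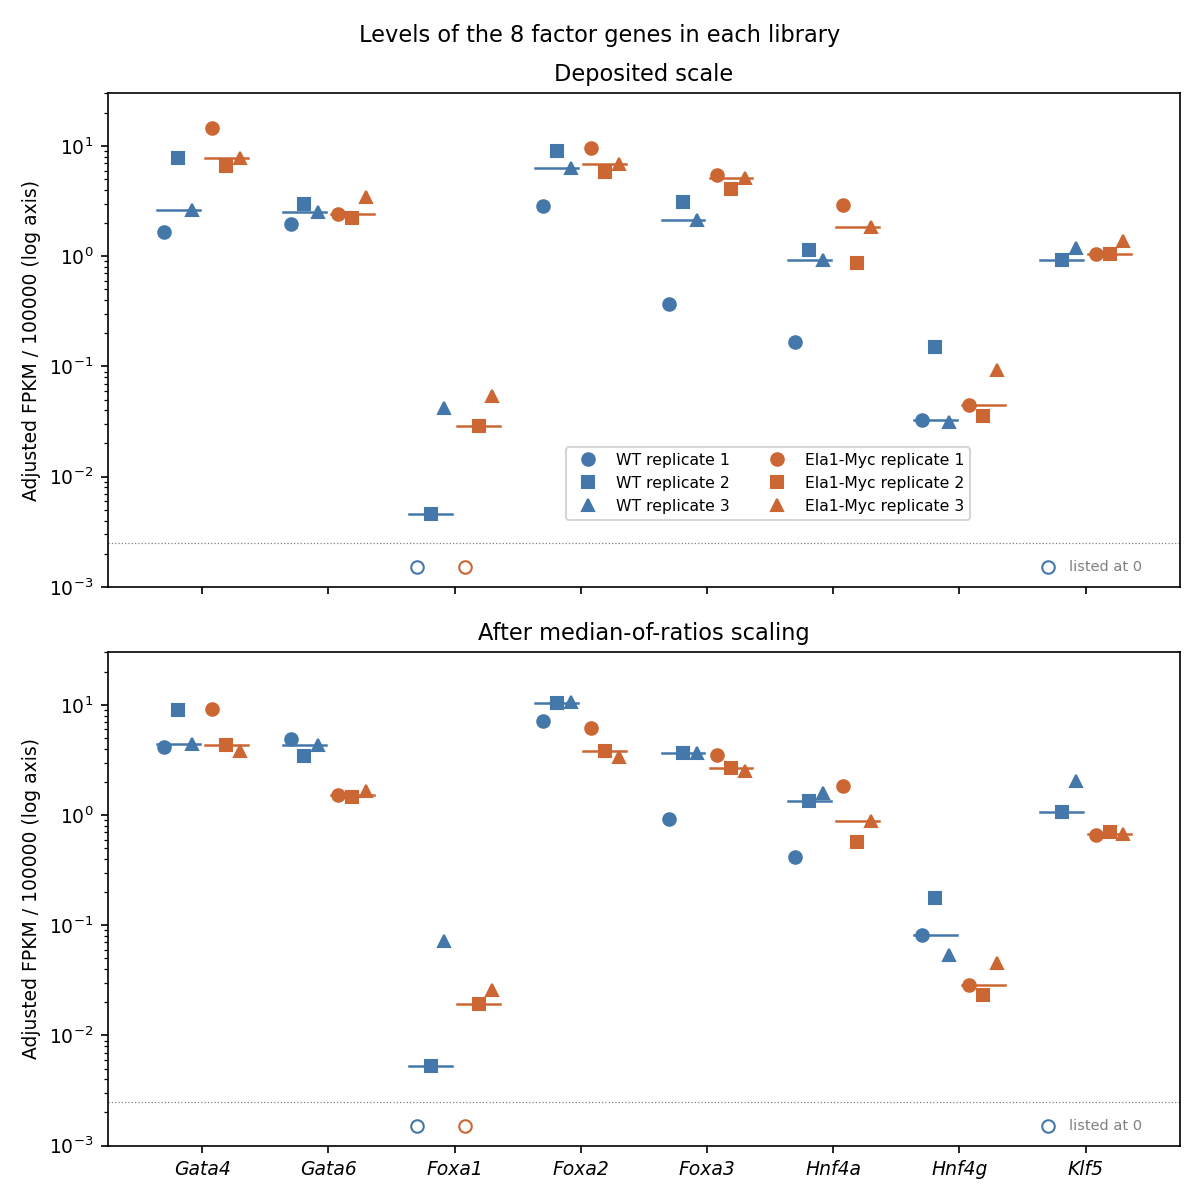
Level of each factor gene in every library (adjusted FPKM divided by 100000, log axis), on the deposited scale above and after median-of-ratios scaling below; symbols are single libraries, short lines are group medians, and open symbols at the foot mark values listed at 0. On the deposited scale only Foxa3 has all 3 Ela1-Myc libraries above all 3 WT libraries, and after scaling Gata6, Foxa2 and Hnf4g have all 3 below.

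The order of the factors differed between the groups at its top. Foxa2 had the highest level of the 8 in all 3 WT libraries, and Gata4 had the highest in all 3 Ela1-Myc libraries, followed in each of these by Foxa2 and then Foxa3. Hnf4g and Foxa1 were the lowest of the factors in all 3 Ela1-Myc libraries and in WT replicates 2 and 3, while Klf5 was listed at 0 in WT replicate 1. In WT the deposited-scale means of Foxa2, Gata4, Gata6 and Foxa3 were 6.05 ± 3.08, 4.03 ± 3.30, 2.49 ± 0.501 and 1.87 ± 1.39 (SD, n = 3 each). Across libraries no neighbours in that order were separated beyond their spread. That spread includes differences of scale between libraries, and within each WT library Foxa2 was above Gata4. In Ela1-Myc, Gata4 and Foxa2 were at 9.70 ± 4.34 and 7.48 ± 2.00, Foxa3 at 4.93 ± 0.747 and Gata6 at 2.69 ± 0.667 (SD, n = 3 each). There the gap between Foxa3 and Gata6 was larger than the spread, with no library of Gata6 above 3.45 and none of Foxa3 below 4.09. Gata4 and Foxa2 overlapped across the Ela1-Myc libraries, although Gata4 was the higher within each.

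Of the 8 genes, 5 had a mean of at least 1 and entered the test: Gata4, Gata6, Foxa2, Foxa3 and Hnf4a. Hnf4a passed that filter through its Ela1-Myc libraries, since its WT mean was 0.75. On the deposited scale Gata4 and Foxa3 were called higher, none was called lower and 3 were not called, against a background of 70.2% of all tested genes called higher. After scaling Gata6 was called lower, none was called higher and 4 were not called, against 7.08% of all tested genes called lower and 17.0% called higher. No overlap, with Ela1-Myc on the upper side, was seen for 1 of the 5 on the deposited scale and for none after scaling, where 75.3% and 28.9% of all tested genes did so. Ela1-Myc was on the lower side, again without overlap, for none on the deposited scale and for 2 of the 5 after scaling, where 0.534% and 17.2% of all tested genes did so.

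Gata4 (chromosome 14, 63198915 to 63245260, GRCm38, as the authors' files give it) stood at 1.66, 7.80 and 2.62 in WT replicates 1 to 3 and at 14.7, 6.60 and 7.84 in Ela1-Myc replicates 1 to 3. WT replicate 2 was as high as Ela1-Myc replicates 2 and 3, so the groups overlapped on this scale. The log2 change was 1.21 ± 0.508 (SE; limma adjusted p = 0.045). Without WT replicate 1 or 3, or without any one of the Ela1-Myc replicates, the call was lost (adjusted p = 0.17, 0.0874, 0.2, 0.0586 and 0.107). After scaling the change was -0.04 ± 0.406 (SE; adjusted p = 0.955), and with RIN as a covariate on the deposited scale it was 0.69 (adjusted p = 0.438).

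Gata6 (chromosome 18, 11052510 to 11085635), the close relative of Gata4, stood at 1.96, 2.96 and 2.55 in WT replicates 1 to 3 and at 2.41, 2.20 and 3.45 in Ela1-Myc replicates 1 to 3, a log2 change of 0.07 ± 0.312 (SE; limma adjusted p = 0.832). After scaling the values were 4.91, 3.45 and 4.34 in WT and 1.52, 1.45 and 1.67 in Ela1-Myc, with no overlap and a change of -1.03 ± 0.188 (SE; adjusted p = 0.0122). Gata6 thus fell relative to the typical gene, a call that was lost without Ela1-Myc replicate 2 or 3 (adjusted p = 0.0633 and 0.0626). A rank within each library needs no scaling: among the genes above 0 in all 6 libraries, 71.9% to 81.8% lay below Gata6 in the WT libraries and 53.1% to 56.0% in the Ela1-Myc libraries. The same genes set the scaling, so the rank is not separate support. The share of all genes whose rank was lower without overlap was not computed.

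The level of Gata4 relative to Gata6 within a library was 0.848, 2.63 and 1.03 for WT replicates 1 to 3, against 6.09, 2.998 and 2.28 for Ela1-Myc replicates 1 to 3. The ratio was highest in Ela1-Myc replicate 1, and WT replicate 2 lay above Ela1-Myc replicate 3. The mean log2 ratio differed by 1.39, from 0.40 ± 0.875 to 1.79 ± 0.733 (SD, n = 3 each; exact two-sided permutation p = 0.2, adjusted p = 0.267 over the 4 ratios tested). The difference was thus not separated from the spread between libraries.

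The other GATA genes were far lower. Gata1, Gata2, Gata3 and Gata5, known from blood, immune and other endodermal or heart tissue, were no higher than 0.374 in any library, and none entered the test. Of the cofactors that bind GATA proteins, Zfpm1 (FOG1) had levels of 5.03, 7.49 and 6.32 in WT against 14.1, 4.39 and 6.62 in Ela1-Myc, with no call on either scale (log2 change 0.24, adjusted p = 0.65; after scaling -1.09, adjusted p = 0.0941). The single high value on the deposited scale was that of Ela1-Myc replicate 1, the library in which Gata4, Foxa2, Foxa3 and Hnf4a were also highest. After scaling, Zfpm1 was at 8.89 in that library and at 12.6, 8.71 and 10.8 in WT replicates 1 to 3. Zfpm2 (FOG2) lay between 0.0913 and 0.352 in all libraries and was not tested.

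Foxa2 (chromosome 2, 148042878 to 148046969) and Foxa3 (chromosome 7, 19013283 to 19023539) were the 2 forkhead factors at an appreciable level. The stretches of 120 bases just before their start sites are shown because the ratio of the 2 genes within a library did not overlap between the groups. They are from RefSeq on GRCm38.p6, minus strand, read 5′ to 3′ in the direction of the gene, at chr2:148046970-148047089 for Foxa2 and chr7:19023540-19023659 for Foxa3, and capitals mark a match to TATAAA.
Foxa2: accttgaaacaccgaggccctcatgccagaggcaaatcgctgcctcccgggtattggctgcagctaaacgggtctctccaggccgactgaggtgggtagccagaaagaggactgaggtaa
Foxa3: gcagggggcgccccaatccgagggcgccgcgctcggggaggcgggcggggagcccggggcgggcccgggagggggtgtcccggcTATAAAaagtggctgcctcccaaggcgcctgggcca
RefSeq start windows were held for Foxa1, Foxa2, Foxa3 and Hnf4a. Each window runs from 250 bases before to 50 bases after a start, and both strands were searched. The E-box CACGTG, which MYC and MAX bind, was held by 7.15% of all 32851 windows. The motif of the GATA factors, written AGATAA, was held by 11.2%. The forkhead motif TGTTTAC was held by 3.65%, and the nuclear receptor motif CAAAGTCCA by 0.475%. The Krüppel-like motif GGGGCGGGG was held by 11.4%, and the letters TATAAA, added after the sequences had been seen, by 13.6%. The E-box, the nuclear receptor motif and the Krüppel-like motif were in none of the windows of the 4 genes, and the forkhead motif was in that of Foxa1, on the reverse strand. The TATAAA match of Foxa3 begins 36 bases before the start, and the printed start of Foxa2 held none of the 6 motifs. RefSeq lists 2 more starts of Foxa2, of which the one at 148045464 has AGATAA 183 bases before it and, on the reverse strand, the TATA letters 208 bases before it. A match is a description of the letters and says nothing of binding.

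Foxa2, active in endoderm and islet cells, stood at 2.86, 9.01 and 6.28 in WT replicates 1 to 3 and at 9.71, 5.83 and 6.89 in Ela1-Myc replicates 1 to 3. The groups overlapped throughout, and the log2 change on the deposited scale was 0.35 ± 0.473 (SE; limma adjusted p = 0.507). After scaling the values were 7.15, 10.5 and 10.7 in WT and 6.12, 3.85 and 3.34 in Ela1-Myc. They no longer overlapped, but the change of -0.96 ± 0.297 (SE) missed the threshold (adjusted p = 0.0573). Foxa2 was called lower under quantile normalization (log2 change -1.22, adjusted p = 0.0395), and also once WT replicate 1 was left out of the scaled values (-1.21, adjusted p = 0.0462). Among the genes above 0 in all libraries it lay above 84.8% to 91.4% of them in WT and above 75.6% to 82.9% in Ela1-Myc.

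Foxa3, known from liver and gut, stood at 0.368, 3.12 and 2.14 in WT replicates 1 to 3 and at 5.52, 4.09 and 5.18 in Ela1-Myc replicates 1 to 3. The groups did not overlap, with Ela1-Myc higher, and WT replicate 1 was far below the rest. The log2 change was 1.18 ± 0.404 (SE; limma adjusted p = 0.0183). The call was lost without WT replicate 1, Ela1-Myc replicate 1 or Ela1-Myc replicate 3 (adjusted p = 0.0945, 0.0803 and 0.0786), and with RIN as a covariate (log2 change 1.02, adjusted p = 0.13). After scaling, the Foxa3 levels were 0.92, 3.63 and 3.64 in WT against 3.48, 2.70 and 2.51 in Ela1-Myc, a change of 0.17 ± 0.372 (SE; adjusted p = 0.755), and without WT replicate 1 it turned to -0.32.

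The balance between Foxa2 and Foxa3 differed between the groups within the libraries. Foxa2 was 7.77, 2.89 and 2.94 times the level of Foxa3 in WT replicates 1 to 3 and 1.76, 1.43 and 1.33 times in Ela1-Myc replicates 1 to 3. Every Ela1-Myc ratio was below every WT ratio, and WT replicate 1 was the highest. The mean log2 ratio was 2.01 ± 0.817 for WT against 0.58 ± 0.21 for Ela1-Myc (SD, n = 3 each), a difference of -1.44 (two-sided exact permutation p = 0.1, which is the lowest value this design allows; adjusted p = 0.2 over the 4 ratios tested). With WT replicate 1 left out the difference was -0.96.

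Foxa1 (chromosome 12, 57540632 to 57546121) was close to absent from these values. It was listed at 0 in WT replicate 1 and Ela1-Myc replicate 1, and stood at 0.00458 and 0.0421 in WT replicates 2 and 3 and at 0.0289 and 0.0537 in Ela1-Myc replicates 2 and 3. Where it was above 0, Foxa2 was at least 128 times as high in the same library. Foxa1 lay under the filter and was not tested.

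**Figure D2:**
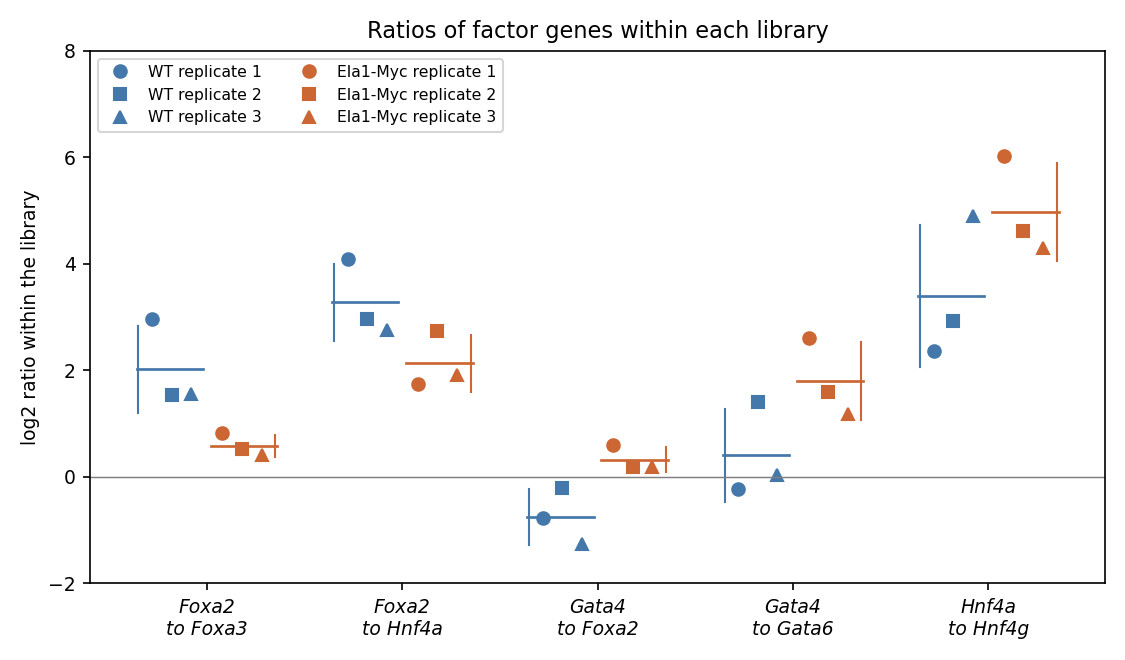
Log2 ratio of one factor to another within each library; symbols are single libraries, horizontal lines are group means and vertical lines are ± 1 SD (n = 3). The ratios of Foxa2 to Foxa3, Foxa2 to Hnf4a and Gata4 to Foxa2 show no overlap between WT and Ela1-Myc, whereas Gata4 to Gata6 and Hnf4a to Hnf4g overlap.

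Hnf4a (chromosome 2, 163547188 to 163572907) has 2 start regions in RefSeq, commonly called P2 and P1, of which the upstream P2 is known for use in pancreatic islet cells and the downstream P1 in liver. The gene as the authors' files place it begins 33 bases after the P1 start and 40331 bases after the P2 start, so a first exon at P2 lies outside it. The sources used here do not say how reads of transcripts from P2 were counted. The 120 bases before each start show how the 2 regions differ. They are from RefSeq on GRCm38.p6, plus strand, read 5′ to 3′, at chr2:163506737-163506856 for P2 and chr2:163547035-163547154 for P1, with a match to AGATAA in capitals.
Hnf4a P2: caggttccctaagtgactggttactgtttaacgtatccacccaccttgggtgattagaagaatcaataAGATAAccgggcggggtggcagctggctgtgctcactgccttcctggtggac
Hnf4a P1: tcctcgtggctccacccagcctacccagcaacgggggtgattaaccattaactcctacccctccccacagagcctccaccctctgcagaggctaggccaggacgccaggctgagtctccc
The AGATAA match begins 52 bases before the P2 start, and the P1 window held none.

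Hnf4a stood at 0.167, 1.15 and 0.932 in WT replicates 1 to 3 and at 2.92, 0.87 and 1.84 in Ela1-Myc replicates 1 to 3. Ela1-Myc replicate 2 lay within the WT values, and WT replicate 1 was lowest. The log2 change was 0.70 ± 0.323 (SE; limma adjusted p = 0.0643), past the threshold without WT replicate 3 or Ela1-Myc replicate 2 (adjusted p = 0.0414 and 0.0272) and among the genes above 0 in all libraries (adjusted p = 0.0109). It was 0.43 without WT replicate 1 (adjusted p = 0.257) and 0.17 with RIN as a covariate (adjusted p = 0.734), and without Ela1-Myc replicate 1 the gene fell under the filter and was not tested. After scaling it was -0.01 ± 0.313 (SE; adjusted p = 0.989). With a WT mean of 0.75, Hnf4a passed the filter only through its Ela1-Myc libraries, so its values past the threshold support nothing. Foxa2 was 17.1, 7.83 and 6.74 times the level of Hnf4a in WT replicates 1 to 3 and 3.32, 6.70 and 3.75 times in Ela1-Myc replicates 1 to 3. These did not overlap, though WT replicate 3 and Ela1-Myc replicate 2 were nearly equal, and the log2 difference was -1.14 (exact two-sided permutation p = 0.1, adjusted p = 0.2).

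Hnf4g (chromosome 3, 3508030 to 3659800), the relative of Hnf4a known from gut, was low throughout and under the filter. It stood at 0.0326, 0.151 and 0.0313 in WT replicates 1 to 3 and at 0.045, 0.0355 and 0.0936 in Ela1-Myc replicates 1 to 3, with overlap. After scaling all 3 Ela1-Myc values, 0.0284, 0.0235 and 0.0453, lay below the WT values of 0.0815, 0.175 and 0.0534. The ratio of Hnf4a to Hnf4g was 5.13, 7.64 and 29.7 in WT and 64.8, 24.5 and 19.7 in Ela1-Myc, a log2 difference of 1.58 that did not stand out from the spread (exact two-sided permutation p = 0.3, adjusted p = 0.3).

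Klf5 (chromosome 14, 99298691 to 99313409) was listed at 0 in WT replicate 1 and stood at 0.917 and 1.19 in WT replicates 2 and 3 and at 1.04, 1.06 and 1.38 in Ela1-Myc replicates 1 to 3. The libraries above 0 overlapped, and with a mean of 0.931 the gene lay just under the filter of 1 and was not tested. Relative to Gata6 in the same library, Klf5 was 0.31 and 0.469 in WT replicates 2 and 3 and 0.431, 0.48 and 0.4 in Ela1-Myc. With WT replicate 1 left out Klf5 entered the test with a log2 change of 0.07 (limma adjusted p = 0.826), and after scaling of -0.67 (adjusted p = 0.0712).

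**Figure D3:**
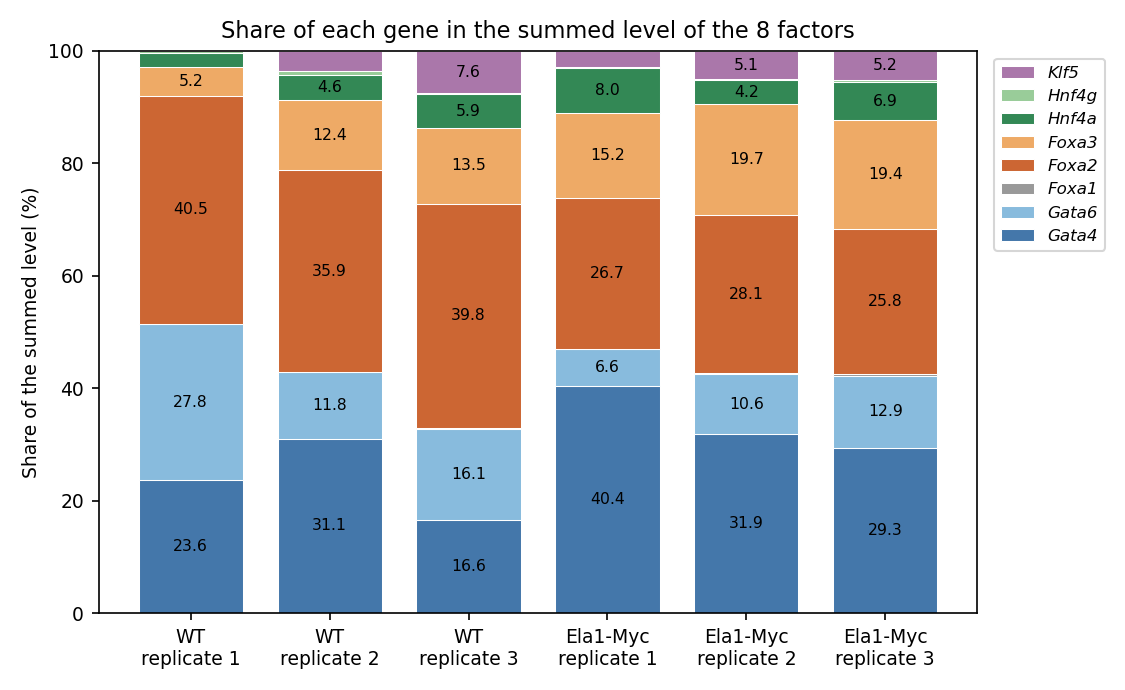
Share of each gene in the summed level of the 8 factors, per library (percent of the sum; numbers give shares above 4%). Foxa2 makes up 35.9% to 40.5% of the sum in WT and 25.8% to 28.1% in Ela1-Myc, and Foxa3 makes up 5.2% to 13.5% and 15.2% to 19.7%.

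As shares of the summed level of the 8 factors, Foxa2 and Foxa3 separated the groups and the others did not. Foxa2 made up 40.5%, 35.9% and 39.8% in WT and 26.7%, 28.1% and 25.8% in Ela1-Myc, and Foxa3 5.22%, 12.4% and 13.5% in WT and 15.2%, 19.7% and 19.4% in Ela1-Myc. Gata4 made up 23.7% ± 7.23 for WT against 33.9% ± 5.79 for Ela1-Myc (SD, n = 3 each), and Gata6 18.6% ± 8.30 and 10.05% ± 3.17 (SD, n = 3 each). Shares of 1 sum are tied to each other, so a higher share of one gene lowers those of the rest. Ratios between other pairs of the 5 tested factors, computed after the values had been seen and not tested, are given as values. Of these 7 pairs, 3 separated the groups. The pairs share genes, and the share of other gene pairs that separate the groups was not computed, so the count is a description only. Gata4 was 0.582, 0.865 and 0.417 times Foxa2 in WT and 1.51, 1.13 and 1.14 times in Ela1-Myc. Gata6 was 5.34, 0.949 and 1.19 times Foxa3 in WT and 0.436, 0.538 and 0.665 times in Ela1-Myc, and neither pair of groups overlapped. Gata6 was 11.7, 2.57 and 2.73 times Hnf4a in WT and 0.824, 2.53 and 1.87 times in Ela1-Myc, again without overlap. The remaining 4 pairs overlapped. Gata4 was 4.52, 2.50 and 1.23 times Foxa3 in WT and 2.66, 1.61 and 1.51 times in Ela1-Myc, and 9.95, 6.78 and 2.81 times Hnf4a against 5.02, 7.59 and 4.27 times. Gata6 relative to Foxa2 was 0.687, 0.329 and 0.405 in WT against 0.248, 0.378 and 0.5003 in Ela1-Myc. Foxa3 relative to Hnf4a was 2.20, 2.71 and 2.29 in WT and 1.89, 4.70 and 2.82 in Ela1-Myc.

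**Figure D4:**
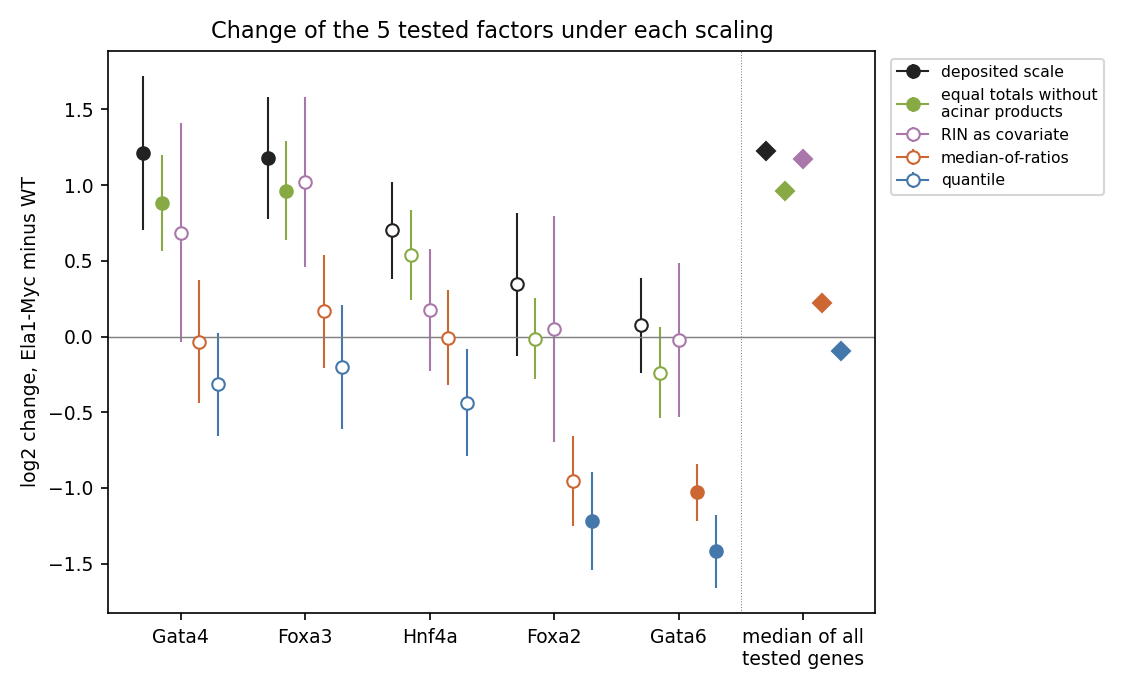
Log2 change (Ela1-Myc minus WT) of the 5 tested factors under the deposited scale and 4 alternatives; bars are ± SE, filled circles passed an adjusted p of 0.05, and diamonds give the median of all tested genes. Gata4, Hnf4a, Foxa2 and Gata6 lie below the median gene under each of the 5 settings and Foxa3 under 4 of them, with Gata6 and Foxa2 farthest from it.

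The counts in the gene lists that follow stand against the 70.2% of all tested genes called higher on the deposited scale, and the 17.0% higher and 7.08% lower after scaling. Of 10 tested genes among 19 other factors of the endoderm and the pancreatic lineage, 4 were higher on the deposited scale and none lower, and 1 was higher and none lower after scaling. Hhex, a homeobox factor of the ventral endoderm, was listed at 0 in WT replicate 1, stood at 0.341 and 0.281 in WT replicates 2 and 3 and at 1.69, 2.40 and 6.09 in Ela1-Myc, and rose by 1.75 log2 units (limma adjusted p = 0.000588; 1.12 and 0.0325 after scaling). Pdx1, a factor of pancreas formation and beta cells, had a log2 change of 0.52 (adjusted p = 0.113; -0.15 after scaling). Sox9, of ducts and progenitors, showed 0.42 (adjusted p = 0.187; -0.48 after scaling). Onecut1 lay between 0.226 and 1.45 and was under the filter. Hhex, the gene of this list called higher on both scales, passed the filter only through its Ela1-Myc libraries, so its calls support nothing about the list.

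Of 6 tested acinar transcription factors, 2 were higher on the deposited scale and none lower, and 1 was higher and 2 lower after scaling. Rbpjl and Bhlha15 had log2 changes of -0.15 and -0.21 (limma adjusted p = 0.844 and 0.782) and fell by 1.64 and 1.68 after scaling (adjusted p = 0.0243 and 0.0191). Ptf1a and Nr5a2 showed 0.15 and 0.45 (adjusted p = 0.835 and 0.308), and -1.29 and -0.66 after scaling (adjusted p = 0.0842 and 0.167). The 2 called higher were the widely expressed E-proteins Tcf3 and Tcf12. Tcf3 rose by 2.03 (limma adjusted p = 5.62e-05), and by 1.25 after scaling (adjusted p = 0.00408). With a WT mean of 0.279, Tcf3 passed the filter only through its Ela1-Myc libraries, so its calls support nothing about the list. Tcf12 rose by 1.16 (adjusted p = 0.0058), with a change of 0.11 after scaling (adjusted p = 0.665).

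Of 16 other Krüppel-like genes, 9 were tested, of which 5 were higher on the deposited scale and none lower and 1 was higher after scaling. That gene was Klf10, a TGF-beta responsive member, with levels of 0.0714, 0.46 and 0.686 in WT against 2.80, 3.44 and 4.25 in Ela1-Myc. Its log2 change was 1.69 (limma adjusted p = 0.000233), and 0.94 after scaling (adjusted p = 0.0353). With a WT mean of 0.406, Klf10 passed the filter only through its Ela1-Myc libraries, so its calls support nothing about the list. Klf6, an injury-responsive gene, rose by 1.43 (adjusted p = 0.00168; 0.40 and 0.203 after scaling). Klf4, which like Klf5 is expressed in gut epithelium, was not called (log2 change 0.43, adjusted p = 0.172; -0.43 and 0.164 after scaling).

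Of 7 tested HNF4 coregulators, 3 were higher on the deposited scale and none lower, and none higher and 1 lower after scaling. Among those higher were Ncoa2, at 0.552 to 0.685 in WT, and Ep300, at 0.250 to 0.402 in WT, named after their values were seen. Both passed the filter only through their Ela1-Myc libraries, so the count of higher calls supports nothing about the list. The gene lower after scaling, singled out once its values were known, was Nr0b2 (SHP), a repressor of nuclear receptors, at 7.39, 13.4 and 10.9 in WT and 7.96, 4.996 and 6.09 in Ela1-Myc (log2 change -0.64, limma adjusted p = 0.222; -1.99 and 0.00428 after scaling). Of 22 textbook HNF4 targets 21 were in the files and 7 were tested, with 4 higher on the deposited scale and none lower and 3 higher after scaling; in at least 2 WT libraries, 8 of the 21 were listed at 0. Apoa2 and Apoc2, apolipoprotein genes named after their values were seen, were among the 3 but entered the test only through their Ela1-Myc values, so these counts support nothing about the list. The tight junction gene Cldn7 rose from 0.692, 4.34 and 1.81 in WT to 11.9, 14.5 and 23.4 in Ela1-Myc (log2 change 2.53, adjusted p = 0.000705; 1.35 and 0.0335 after scaling). Of 14 textbook FOXA targets 13 were in the files and 5 were tested, with 2 higher on the deposited scale and none lower. The 2 were Alb and Gcg. Alb, at 0, 0.286 and 0.445 in WT replicates 1 to 3, passed the filter only through its Ela1-Myc libraries. Gcg, an islet marker, was listed at 0 in WT replicates 1 and 3. The count of higher calls therefore supports nothing about the list. After scaling none of the 5 tested targets was higher and 1 was lower. That gene, also singled out once its values were known, was Spdef, an epithelial ETS factor (log2 change -0.47, adjusted p = 0.286; scaled, -1.73 and 0.00374).

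In whole-tissue RNA, fewer cells of a type and less RNA per cell cannot be told apart, and several cell types differed between the libraries. The acinar identity of the tissue was clear, with 19 acinar products summing to between 500904 and 1486584 in WT and between 290536 and 604232 in Ela1-Myc; 11 of the 19 were lower and none higher on the deposited scale, and 18 were lower after scaling. The enzymes Pnlip, Cela2a and Cela1 fell by 1.499, 1.40 and 1.39 log2 units (limma adjusted p = 0.0035, 0.00535 and 0.00488); once scaled, they fell by 3.04, 2.94 and 2.93. The 15 islet markers, whose cells also use FOXA2 and HNF4A, summed to 0.344, 2488 and 394.9 in WT replicates 1 to 3 and to between 2453 and 3376 in Ela1-Myc; Ins2 made up 75.8% of that sum, and in at least 2 WT libraries Gcg and Ppy were listed at 0. Of 9 tested islet markers 7 were higher and none lower, and 2 were higher after scaling. On the deposited scale, on which WT replicate 1 was low for the typical gene (size factor 0.40), that library had the lowest islet sum and the lowest Gata4, Gata6, Foxa2, Foxa3 and Hnf4a. After scaling it still had the lowest islet sum, Foxa3 and Hnf4a, but the highest Gata6 of all 6 libraries, and its Foxa2 lay above every Ela1-Myc library. In WT replicate 2, whose islet sum was within the Ela1-Myc values, Gata4, Gata6, Foxa2 and Hnf4a were within them too and Foxa3 below. After scaling its islet sum, Gata6, Foxa2 and Foxa3 were above the Ela1-Myc values, and its Gata4 and Hnf4a within them.

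Among the 13 duct markers 7 of 11 tested were higher and none lower, and 2 higher and 2 lower after scaling. Their sum, 93.2% of it from Tff2, was 5008 to 9935 in WT and 2656 to 4103 in Ela1-Myc, with Cftr, Spp1 and Epcam listed at 0 in at least 2 WT libraries. All 10 tested macrophage markers were higher, and 8 after scaling, with sums of 1.25 to 51.1 in WT and 406.7 to 1165 in Ela1-Myc, and with Cd68, Emr1, C1qa and C1qb listed at 0 in at least 2 WT libraries. Of 11 tested stellate and fibroblast markers 10 were higher, and 5 after scaling, with sums of 50.1 to 118.5 and 396.7 to 624.1, and with Col1a1, Col1a2 and Col6a1 listed at 0 in at least 2 WT libraries. Named by rule, the macrophage genes Cd14 and Mrc1 rose by 2.30 and 2.11 log2 units (limma adjusted p = 0.000185 and 0.000171; 1.17 and 1.22 after scaling, adjusted p = 0.0489 and 0.0361). The collagen gene Col3a1 rose by 3.27 (adjusted p = 0.000868; 1.86 and 0.0419 after scaling). All 11 tested lymphocyte markers were higher, and 1 after scaling (sums 0 to 89.4 and 64.5 to 509.8, with 10 of the 12, Cd3e and Ptprc among them, listed at 0 in at least 2 WT libraries), as were 6 of 10 endothelial markers, none after scaling (sums 21.1 to 48.6 and 83.6 to 91.5). Of the 6 tested adipocyte markers 5 were higher, none after scaling (sums 15.04 to 282.7 and 168.8 to 598.1, with Plin1, Cidec and Lep at 0 in at least 2 WT libraries), and of the 4 tested liver products 2 were higher, none after scaling (sums 6.89 to 21.3 and 29.1 to 30.2). After scaling the sums of the endothelial markers (35.9 to 66.8 and 40.5 to 57.7) and of the liver products (11.7 to 53.2 and 14.6 to 19.2) overlapped between the groups. Those of the islet, lymphocyte and adipocyte markers overlapped on both scales. The macrophage (2.14 to 85.9 and 256.5 to 769.4) and stellate sums (85.3 to 197.9 and 250.3 to 401.5) were still higher in Ela1-Myc after scaling, and the duct sum still lower. A 0 was listed in some library for all 11 tested lymphocyte markers and for 8 of the 10 tested macrophage markers. Markers at 0 in WT could pass the filter through their Ela1-Myc values alone. Cd68, at 0 in all WT libraries, and Mrc1, with a WT mean of 0.413, did so. The counts of higher calls among lymphocyte and macrophage markers therefore support nothing about these lists. The part of any of these cell types in the values of the 8 factors was not tested.

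Profiles most like those of single factors were sought among genes above 0 in all 6 libraries with a mean of at least 5, by the mean absolute difference of centred log2 profiles after scaling, as a description over 6 libraries. For Gata6 the nearest were Entpd1, an ectonucleotidase, 0610037P05Rik and Fut8, a fucosyltransferase, at 0.08, 0.10 and 0.11 log2 units. For Foxa2 they were Fam132a, Selm and Slc12a8, at 0.07, 0.08 and 0.09. Scaled levels of Entpd1 were 10.4, 8.99 and 9.59 in WT against 4.10, 4.42 and 4.03 in Ela1-Myc, and Fam132a at 7.01, 9.39 and 9.23 and at 6.18, 3.49 and 2.68. The nearest to Gata4 were Zfpl1, 2310044H10Rik and Ece2 (0.10, 0.11 and 0.12). The nearest to Foxa3 were 1810031K17Rik, Nudt14 and Uap1l1 (0.12, 0.13 and 0.15), and to Hnf4a Ctdsp2, Cenpv and Gm11974 (0.09, 0.10 and 0.10). The profile of Hnf4g is flattened by the pseudocount, and its nearest genes Ipo7, Mrpl40 and Mff (0.08, 0.09 and 0.10) only share that flatness.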

How the data were processed

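Polyadenylated RNA of 6 pancreas libraries was measured. The deposited tables hold the authors' adjusted FPKM, per the file headers; the sources used here do not describe the adjustment. ERCC spike-in RNA was added, per the labels' protocols; whether the adjustment used it is not said. The submitters' processing notes name TopHat2 2.0.4 and Cufflinks 2.0.2 and the build GRCm38/mm10. They also name the software affy, without a version, and its part in the adjustment was not tested. Values were divided by 100000, and for symbols with several rows the handling was varied as an alternative. Depth is unknown.

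limma 3.58.1 in R 4.3.3 was run on log2(value + 1) with an intensity trend, over the 8802 genes with a mean of at least 1, with Benjamini-Hochberg adjustment over all of them; fold changes on this scale understate changes of low genes. Median-of-ratios scaling was the chief alternative, and the closing section gives the others. Ratios within libraries were tested by exact two-sided permutation. The limma fit was tested on simulated data in which only genes above the WT levels of the 8 factors were changed, so that test does not bear on their calls. Promoters came from RefSeq (GRCm38.p6), where Foxa1, Foxa2, Foxa3 and Hnf4a of the 8 genes were matched.

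The 8 genes and all lists were chosen with earlier results of these data known. Genes named are the 8 themselves, all other GATA, FOG and acinar factors, Onecut1, Hhex, Pdx1, Sox9, Klf4 and Klf6, up to 3 genes per other list with the largest change among those called alike on both scales and above 0 in all 6 libraries, and the 3 genes most like each factor in profile. Nr0b2, Spdef, Ncoa2, Ep300, Alb and Gcg were added after their values were seen. Some genes that this rule names are not reported here.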

Additional observations from a re-analysis of the deposited data

How the results depend on the processing

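The number of the 8 factors called higher was 2 on the deposited scale. It was 0 under median-of-ratios scaling, quantile normalization, a pseudocount of 0.1, a pseudocount of 1 before the division, no filter, RIN as a covariate, each scaled alternative and both fits chosen after seeing the data (no filter with a pseudocount of 0.001, with and without scaling), 1 without the intensity trend, and 0 to 2 with 1 library left out (0 to 0 after scaling). It was 3 among the genes above 0 in all libraries, where 68.7% of the genes tested were called higher. That count included Hnf4a, which passed the filter on the mean only through its Ela1-Myc libraries, so its call supports nothing. The same holds for the calls of Hnf4a without WT replicate 3 or Ela1-Myc replicate 2. The share of tested genes called higher was 64.7% with a pseudocount of 0.1, 38.3% with a pseudocount of 1 before the division and 36.7% without a filter. With RIN as a covariate it was 45.4%, without the intensity trend 70.8%, and with 1 library left out 49.5% to 81.1%. The factors tested numbered 5, but 8 without a filter and 4 to 6 with 1 library left out. The number called lower was 0, and 1 after scaling, 2 under quantile normalization, and with scaling 2 among genes above 0 in all libraries, 2 with array weights, 1 with a pseudocount of 0.1 and 2 in the added fit; with 1 library left out it was 0, and 0 to 2 after scaling. These counts stand against shares of all tested genes that moved as well: under quantile normalization 10.7% were called higher and 15.6% lower. With scaling, 9.21% were called higher and 9.78% lower among genes above 0 in all libraries, and 22.8% and 9.67% with array weights. A pseudocount of 0.1 with scaling gave 9.30% and 5.96%, and the added scaled fit 8.13% and 24.9%. The added fit without scaling gave 34.2% and 20.5%. With scaling and 1 library left out, 5.39% to 21.2% were called higher and 1.79% to 6.5% lower. Reversed log2 changes follow. Under scaling, also among genes above 0, Gata4 was -0.035, Gata6 -1.03, Foxa2 -0.96 and Hnf4a -0.0063. Under quantile normalization Gata4 was -0.32, Gata6 -1.42, Foxa2 -1.22, Foxa3 -0.20 and Hnf4a -0.44. With array weights and scaling Gata4 was -0.23, Gata6 -1.004, Foxa2 -1.12 and Hnf4a -0.10. With a pseudocount of 0.1 and scaling Gata4 was -0.044, Gata6 -1.38 and Foxa2 -1.10, and in the added scaled fit -0.045, -1.44 and -1.12. With equal totals without acinar products Gata6 was -0.24 and Foxa2 -0.015, and with RIN Gata6 was -0.022. With 1 library left out, Gata4 ranged from 0.85 to 1.71 (-0.35 to 0.27 after scaling), Gata6 from -0.069 to 0.17 (-1.16 to -0.98), Foxa2 from -0.036 to 0.65 (-1.21 to -0.79), Foxa3 from 0.71 to 1.51 (-0.32 to 0.37) and Hnf4a from 0.43 to 0.98 (-0.34 to 0.17), the last over 5 fits, since Hnf4a was not tested without Ela1-Myc replicate 1. Within these ranges, scaled Gata4 was -0.28 without WT replicate 1 and -0.22 without WT replicate 3, scaled Gata6 -1.04 and -1.08 without the same libraries and -1.02 without Ela1-Myc replicate 3, and scaled Foxa2 -0.89 when WT replicate 2 was dropped, -0.92 for WT replicate 3, -1.13 for Ela1-Myc replicate 1 and -0.88 for Ela1-Myc replicate 2. The tested log2 ratios kept their direction with 1 library left out: -1.68 to -0.96 for Foxa2 to Foxa3, -1.45 to -0.73 for Foxa2 to Hnf4a, 0.99 to 1.89 for Gata4 to Gata6 and 1.06 to 2.33 for Hnf4a to Hnf4g. With 1 added to both values they were -0.83, -0.36, 1.14 and 0.72. Apart from the scale itself, the cause was not tested. No paired analysis was possible because the labels give no replicate numbers shared between the groups. Unknown depth leaves no counting error for Foxa1 and Hnf4g.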
